A study of Mus musculus with 24 samples.

Results

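Immortalized mouse embryonic fibroblasts (MEFs) that had lost both Myc and Mlx (double knockout, DKO) were compared with primary DKO MEFs. The comparison rested on 6 of the 24 libraries of the series, 3 immortalized and 3 primary, and on the 12835 of 41710 listed genes that reached 1 CPM, a read count scaled to the depth of its library, in at least 3 of the 6. All lines carried floxed Myc and/or Mlx alleles and a CreER recombinase driven from the ROSA26 locus in every cell, and excision was induced with 4-hydroxytamoxifen (4OHT). Wild-type (WT) cells were the same kind of cells without 4OHT. The MEFs of every group came from pooled embryos of about day 14 to 16 of gestation, and the primary DKO cells had stopped growing when their RNA was taken. Immortalized cells had been transduced with a lentivirus encoding SV40 T antigen and selected with blasticidin before 4OHT was given to excise the genes or withheld to keep WT. The 3 floxed lines were transduced in this way, and the line that served as immortalized WT was not named. Polyadenylated RNA was sequenced. The primary and immortalized libraries were deposited as separate tables, so immortalization and anything that differed between the preparations of these tables cannot be told apart. The study reported that immortalized DKO cells kept dividing, so growth state and T antigen cannot be told apart either. The libraries of a group came from triplicate RNAs, which the study called biological replicates for the primary MEFs. Since the cells of a group were pooled and separate cultures were not described for these RNAs, the p-values measure only the spread between these samples, which may be technical.

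Myc is a transcription factor that pairs with Max and binds E-box sequences near the starts of genes for growth, ribosome production, metabolism and cell division. Mlx is a Max-like protein that pairs with MondoA (Mlxip) or ChREBP (Mlxipl) and drives glucose-responsive genes such as Txnip. SV40 T antigen binds and inactivates p53 and the retinoblastoma (Rb) family of proteins, which otherwise hold back the E2F factors that switch on replication genes, and which help the DREAM complex to repress mitotic genes. Fibroblasts are the cells that make most of the collagen and other extracellular matrix of connective tissue. The comparison addressed how the transcriptome of dividing DKO cells with T antigen differs from that of arrested primary DKO cells.

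The 6 DKO libraries held between 17667784 and 20361685 reads on genes, so that 3 reads corresponded to between 0.153 and 0.173 CPM. In the main test (limma-trend on log2(CPM + 1) after joint scaling, Benjamini-Hochberg adjusted p below 0.05), 4196 genes (32.7% of those tested) were higher and 4776 (37.2%) were lower in immortalized DKO cells. The 3 libraries of a group did not overlap those of the other for 4415 higher genes (34.4%) and 4969 lower genes (38.7%). Hence a gene list was read against these shares rather than against 0. The median log2 difference over all genes was -0.03 after joint scaling and 0.17 with library totals. Of the genes called, 46.8% were higher with joint scaling and 63.0% with library totals. The latter gave 5838 higher and 3435 lower genes, so small median differences and counts of lists depend on the scaling. Log2 differences below are immortalized minus primary on the log2(CPM + 1) scale, which understates the change of low genes, and library values are jointly scaled CPM in the order of libraries 13, 14 and 15 of each group. For the WT lines, immortalized library 4 stood apart from the other two (correlation over genes 0.985 to 0.986, against 0.998 between those). Sex-linked transcripts also varied widely among the immortalized WT libraries. With all 24 libraries scaled together, the Y-linked Ddx3y ranged there from 4.26 to 98.1 CPM and Xist from 507 to 1958 CPM. Whether library 4 came from other cells was not tested. Interactions with WT are therefore also given without library 4.

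**Figure D1:**
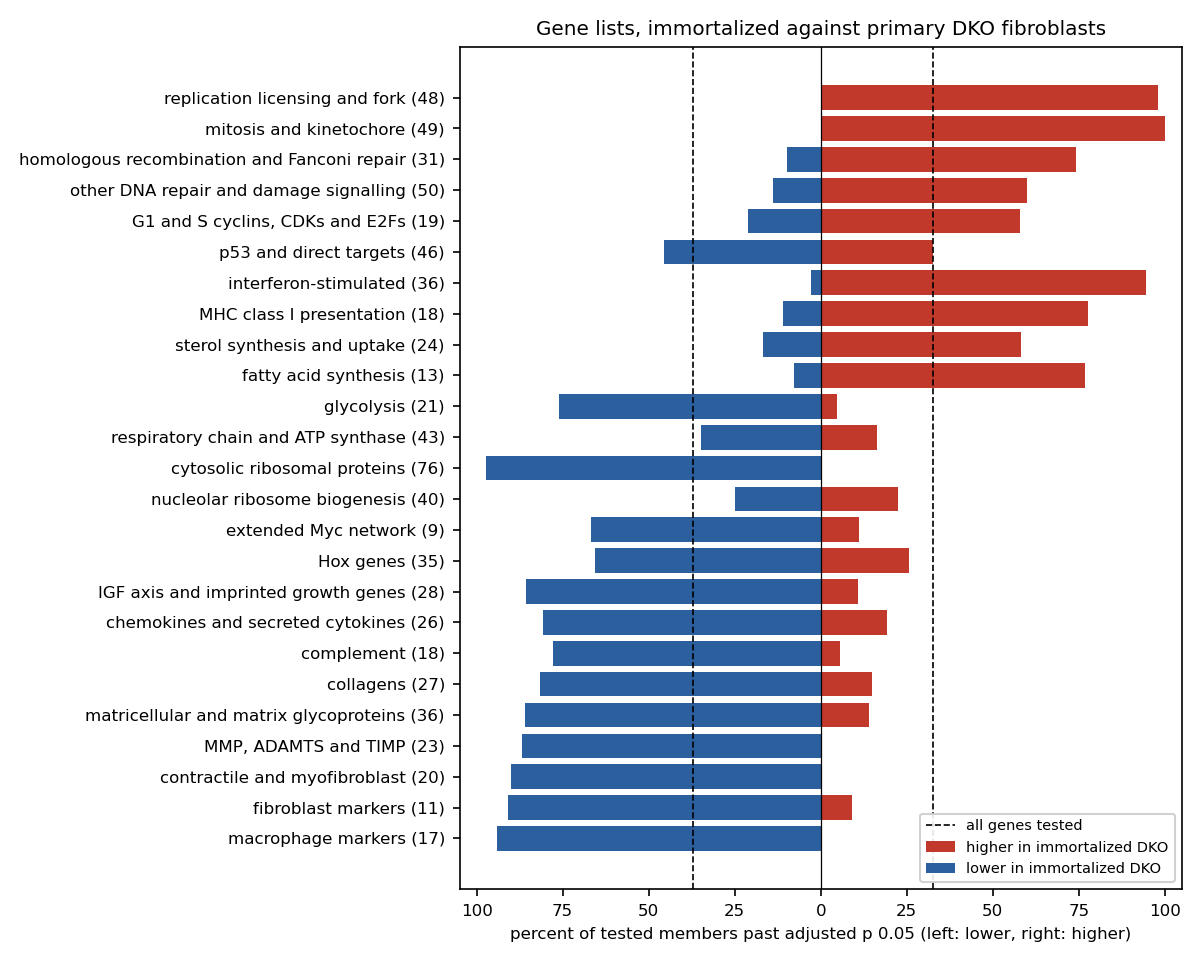
Percent of the tested members of 25 gene lists that passed adjusted p 0.05 in the comparison of immortalized with primary DKO cells, drawn to the left for lower and to the right for higher in immortalized DKO (number of tested members in brackets). Dashed lines mark the shares over all genes tested, 37.2% lower and 32.7% higher. Replication, mitosis and interferon-stimulated genes lie almost wholly to the right, and ribosomal protein, matrix, contractile and macrophage marker genes almost wholly to the left.

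The deleted genes were examined first. Myc (chr15:61857227-61862223, GRCm39) was measured at 7.44, 5.36 and 3.92 CPM in immortalized DKO and at 23.2, 24.6 and 21.7 CPM in primary DKO, without overlap. It was therefore 4.16-fold lower after immortalization (log2 difference -1.91, SE 0.166, adjusted p = 4.41e-07). With all 24 libraries scaled together, primary WT had 96.1 to 107 CPM and immortalized WT 36.9 to 164 CPM, the highest of which was library 4. Both DKO groups thus lay below every WT library. Mlx (chr11:100978080-100983043, GRCm39) was at 13.5, 16.8 and 16.3 CPM in immortalized and at 12.7, 12.9 and 10.6 CPM in primary DKO. Its difference was 0.34 (SE 0.121, adjusted p = 0.0249), and it no longer passed without immortalized library 14 (0.29), immortalized library 15 (0.30) or primary library 15 (0.25), nor without the filter on low values. In the scaling over 24 libraries, Mlx ranged from 10.6 to 16.7 CPM over the 6 DKO libraries and from 18.9 to 27.8 CPM over the 6 WT libraries. The counts summed whole genes, which include bases outside the floxed exons, so remaining reads do not measure intact transcripts.

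The partners of Myc and Mlx were mostly lower in immortalized DKO. Of 9 tested members of the extended Myc network, 6 fell and 1 rose (median log2 difference -0.64, against -0.03 over all genes). Mycl, a relative of Myc, fell most. It was at 0.528, 0.526 and 0.662 CPM in immortalized DKO and at 14.9, 14.8 and 14.2 CPM in primary DKO (log2 difference -3.31, adjusted p = 1.91e-10). Max, the shared partner of Myc, fell by 0.84 on the log2 scale, and the Max-binding repressors Mxd4, Mxi1 and Mnt fell by 0.85, 0.92 and 0.50. Mlxip, which encodes MondoA, fell by 0.64. Mxd3, a Max partner known from S phase, was the member that rose (log2 difference 1.03). Mga had a log2 difference of -0.06 (adjusted p = 0.573). Mlxipl stayed below the filter, at 0.0526 to 0.341 CPM over the 6 libraries.

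The 6 tested Mlx network targets were divided, with 3 higher and 3 lower. Txnip, which encodes a thioredoxin-binding inhibitor of glucose uptake and is the classical MondoA-Mlx target, was at 0.633, 1.21 and 1.37 CPM in immortalized DKO and at 25.5, 28.1 and 25.6 CPM in primary DKO (24.6-fold lower, log2 difference -3.74, SE 0.15, adjusted p = 2.82e-10). Its arrestin-family relative Arrdc4 was at 0.686, 0.683 and 1.02 CPM against 8.47, 6.14 and 6.83 CPM (log2 difference -2.18, adjusted p = 6.99e-08). For neither gene did the groups overlap. Arrdc3, Klf10 and Krt80 rose by 0.93, 1.27 and 1.31 on the log2 scale. The promoter of Arrdc4 is shown because it holds the E-box CACGTG to which Myc-Max and MondoA-Mlx bind, here 193 bases before the start. The stretch lies at chr7:68749239-68749438 on the minus strand (RefSeq, GRCm38.p6), with the E-box in capitals.
Arrdc4: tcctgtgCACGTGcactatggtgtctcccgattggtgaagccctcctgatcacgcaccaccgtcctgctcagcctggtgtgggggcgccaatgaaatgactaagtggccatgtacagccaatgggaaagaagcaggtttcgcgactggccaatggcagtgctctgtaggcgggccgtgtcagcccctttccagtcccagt
Among the 27025 RefSeq promoters searched (250 bases before the start, both strands), 6.04% held this E-box. For the genes tested, 10057 had a promoter, and 8.47% of these held it, as did 9.07% of those called higher and 7.33% of those called lower.

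The DNA replication genes were higher in immortalized DKO almost without exception. Of 48 tested genes for replication licensing and the replication fork, 47 rose and none fell (median log2 difference 1.74). The exception was Orc5, a subunit of the origin recognition complex (0.13, adjusted p = 0.29), which passed with library totals (0.34). The 6 subunits of the MCM helicase, which unwinds DNA at the fork, had differences between 1.73 (Mcm7) and 2.31 (Mcm6). About 26.1% of Mcm7 is shared with other sequences, which makes its count less certain. Mcm6 was at 276, 308 and 286 CPM in immortalized DKO and at 54.7, 57.1 and 61.3 CPM in primary DKO (5.02-fold, adjusted p = 3.68e-11). Mcm5 was at 143, 133 and 141 CPM against 32.2, 28.9 and 31.6 CPM, a 4.5-fold difference. Prim1, the primase that starts each new strand, rose the most (log2 difference 2.47), followed by the sliding clamp Pcna (2.35), of which 32.0% is shared sequence. Cdc6, which loads the helicase at origins, was at 25.1, 25.7 and 26.1 CPM against 4.67, 5.17 and 6.39 CPM (log2 difference 2.06, SE 0.119, adjusted p = 8.38e-09).

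The mitotic genes were higher as a whole: all 49 tested genes for mitosis and the kinetochore rose (median log2 difference 1.60). In the list, Ect2 and Anln, which position and scaffold the cytokinetic ring, had log2 differences of 2.35 and 2.21. Anln was at 507, 583 and 523 CPM in immortalized DKO and at 118, 119 and 108 CPM in primary DKO. The decatenating enzyme Top2a was at 477, 558 and 494 CPM against 144, 139 and 130 CPM (3.70-fold). Cdk1, the kinase that drives entry into mitosis, was at 150, 152 and 163 CPM against 63.3, 66.2 and 55.3 CPM (2.51-fold, adjusted p = 1.46e-08). Its cyclin partner Ccnb2 was at 51.2, 56.9 and 56 CPM against 27.2, 27.6 and 26.7 CPM (2.01-fold), and Cdc20, an activator of the anaphase-promoting complex, was 2.55-fold higher. For none of these genes did the 2 groups overlap. The counts of both lists were the same without any one of the 6 libraries.

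The promoters of members of these lists are shown because they hold the elements through which E2F and DREAM are known to act. E2F elements were searched as TTTGGCGC, TTTCCCGC, TTTGCCGC and TTTCGCGC, which can overlap one another on opposite strands, and the cell cycle homology region (CHR) as TTTGAA, on both strands of the 250 bases before the start. Among all promoters 1.92% held an E2F element and 16.3% a CHR. The corresponding shares among tested genes were 3.49% and 10.5%. Of 38 replication genes with a promoter, 9 (23.7%) held an E2F element and 4 (10.5%) a CHR, and of 40 mitotic genes 13 (32.5%) held a CHR and 2 (5.0%) an E2F element. The stretches are RefSeq sequence on GRCm38.p6, 5′ to 3′ on the strand of the gene, with E2F and CHR elements in capitals. Mcm5 lies at chr8:75109349-75109508 (plus strand), Mcm6 at chr1:128359706-128359825 (minus) and Cdc6 at chr11:98908001-98908150 (plus). Rbl1, an Rb family member described with the cell cycle inhibitors, lies at chr2:157204535-157204634 (minus).
Mcm5: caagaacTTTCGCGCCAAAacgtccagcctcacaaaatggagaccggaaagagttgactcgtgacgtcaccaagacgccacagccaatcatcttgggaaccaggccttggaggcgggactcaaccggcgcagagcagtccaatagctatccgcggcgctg
Mcm6: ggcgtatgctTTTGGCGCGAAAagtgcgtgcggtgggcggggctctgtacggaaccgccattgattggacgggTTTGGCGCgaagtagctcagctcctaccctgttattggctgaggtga
Cdc6: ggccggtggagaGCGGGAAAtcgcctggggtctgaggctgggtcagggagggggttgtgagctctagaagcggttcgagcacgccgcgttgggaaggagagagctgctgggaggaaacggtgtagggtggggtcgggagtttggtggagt
Rbl1: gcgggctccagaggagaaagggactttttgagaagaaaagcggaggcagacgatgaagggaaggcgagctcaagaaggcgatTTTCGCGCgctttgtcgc
The mitotic examples are Cdk1 at chr10:69352913-69353062, Cdc20 at chr4:118437344-118437443 and Ccnb2 at chr9:70421555-70421734, all on the minus strand. Cdk1 held 2 CHR elements and an E2F element, and the others 1 CHR element each.
Cdk1: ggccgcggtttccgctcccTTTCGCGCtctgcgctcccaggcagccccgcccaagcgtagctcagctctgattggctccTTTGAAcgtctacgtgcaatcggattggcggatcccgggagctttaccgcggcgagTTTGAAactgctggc
Cdc20: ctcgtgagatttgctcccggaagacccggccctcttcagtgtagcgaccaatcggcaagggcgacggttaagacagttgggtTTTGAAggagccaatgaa
Ccnb2: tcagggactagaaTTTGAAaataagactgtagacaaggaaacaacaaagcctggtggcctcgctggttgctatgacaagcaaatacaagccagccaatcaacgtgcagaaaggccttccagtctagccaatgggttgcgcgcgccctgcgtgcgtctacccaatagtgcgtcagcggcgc
The elements in Mcm5 began 153 and 149 bases before the start on opposite strands and overlapped, and those in Mcm6 began at 110, 106 and 47. Other members of both lists rose without any of these letters in the window. A match describes sequence only.

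To show where the DKO difference arose, the CPM of list members were summed by library, with all 24 libraries scaled together. The replication list summed to 3719 to 3863 CPM in immortalized DKO and 1142 to 1170 CPM in primary DKO. In WT it summed to 3847 to 4419 CPM after and 2249 to 2346 CPM before immortalization, and in MycKO to 3890 to 4042 CPM and 1461 to 1622 CPM. The primary DKO cells were hence the lowest of these groups, and the immortalized groups lay close together. For mitosis, the sums were 5753 to 6341 CPM in immortalized and 1933 to 2053 CPM in primary DKO, against 4980 to 7778 CPM and 3590 to 3629 CPM in WT, where library 4 was the highest. The difference between immortalized and primary cells was itself compared between genotypes by an interaction test across all genes. For DKO minus WT, 1224 of 13256 genes (9.23%) were higher and 1162 (8.77%) lower. For DKO minus MycKO, 1959 of 13168 genes (14.9%) were higher and 2065 (15.7%) lower. In the first of these, 36 of 48 replication genes and 35 of 49 mitotic genes passed as higher in DKO and none as lower. Without immortalized WT library 4, these counts were 42 and 48, while over all genes 2530 were higher and 2370 lower. List counts without library 4 are to be read against these larger totals. Against MycKO, 13 replication genes were higher and 1 lower, and 20 mitotic genes were higher and 1 lower.

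**Figure D2:**
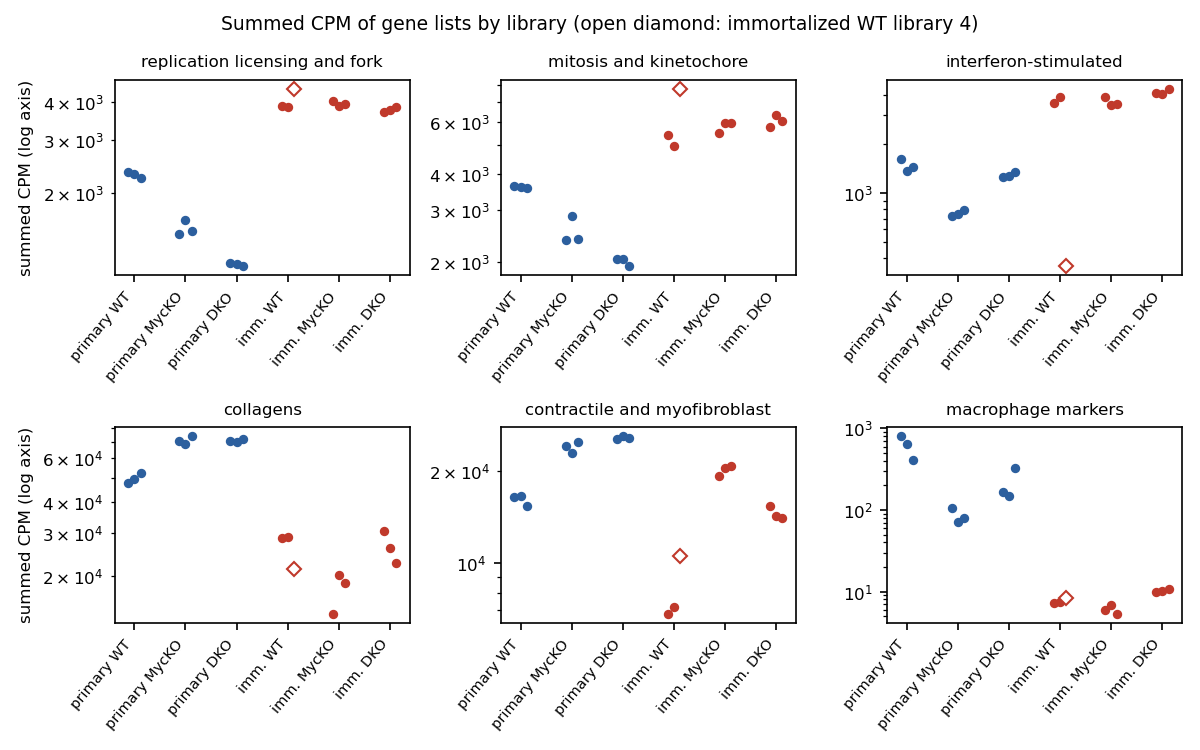
Summed CPM of the members of 6 gene lists in each library (log axis, all 24 libraries scaled together), for primary and immortalized (imm.) WT, MycKO and DKO, 3 libraries a group. The open diamond is immortalized WT library 4, which has 356 CPM of interferon-stimulated transcripts where the other immortalized WT libraries have 3550 and 3900. Primary DKO lies lowest for replication (1142 to 1170) and immortalized DKO (3719 to 3863) lies near the other immortalized groups.

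The G1 and S phase regulators moved in both directions. Of 19 tested genes, 11 rose and 4 fell (median log2 difference 0.45). Among D-type cyclins, which open G1, Ccnd1 was higher and Ccnd2 lower. Ccnd1 was at 655, 636 and 645 CPM in immortalized DKO and at 198, 190 and 212 CPM in primary DKO (log2 difference 1.69, adjusted p = 3.06e-10). Ccnd2 was at 108, 114 and 101 CPM against 733, 708 and 730 CPM (log2 difference -2.74, adjusted p = 4.49e-12). Cdk6 fell with Ccnd2 (7.28, 6.78 and 5.55 CPM against 44.9, 37.1 and 37.3 CPM). Ccne1, Ccne2 and Cdk2, which act at the start of S phase, rose by 0.64, 2.10 and 1.38. E2f1 was 2.03-fold and the repressor E2f7 5.70-fold higher. In WT, the Ccnd1 difference was -0.92 with library 4 (51.9 CPM) and -0.10 without it, as the other immortalized WT libraries had 280 and 294 CPM and overlapped primary WT (294 to 324 CPM). The interaction was 2.60 (SE 0.675, adjusted p = 0.0211) with library 4 and 1.79 (adjusted p = 1.32e-08) without it. It did not pass without primary DKO library 14 (2.56) or primary WT library 2 (2.56).

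Inhibitors of cyclin-dependent kinases did not share 1 direction either: 6 of 10 tested inhibitors and Rb family genes rose and 3 fell. Cdkn2a, whose transcripts encode p16 and p19Arf, was at 271, 236 and 241 CPM in immortalized DKO and 51.5, 50.4 and 53.1 CPM in primary DKO (4.82-fold higher). Cdkn2c (p18) was 5.05-fold higher, and Rbl1, which encodes the Rb relative p107, was at 74.4, 97.7 and 89.6 CPM against 16.8, 18 and 17.7 CPM (4.99-fold). Rb1 itself rose by 0.90 on the log2 scale. Cdkn1a, which encodes p21 and is the best known p53 target, was at 153, 139 and 148 CPM against 381, 365 and 382 CPM (2.57-fold lower, adjusted p = 1.97e-09). Cdkn1c (p57) fell by 2.25, from 28.3 to 30.6 CPM in primary to 4.63 to 5.96 CPM in immortalized DKO.

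Genes of p53 and its direct targets split in number. Of 46 tested, 15 rose and 21 fell, where 32.7% of all genes tested rose and 37.2% fell. The median of the list was -0.17 and became 0.05 (19 higher, 15 lower) with library totals. The median over all genes went from -0.03 to 0.17, so that of the list stayed below it. Trp53 had a log2 difference of -0.02 (adjusted p = 0.838), which became 0.20 and passed with library totals. Mdm2, the ligase that degrades p53, had one of 0.08 (adjusted p = 0.33), or 0.30 and past the threshold with library totals. Besides Cdkn1a, the targets Dram1, Eda2r, Sesn2 and Bbc3 (encoding Puma, a trigger of apoptosis) fell by 1.81, 1.39, 1.17 and 1.06. Among those that rose was Perp, a desmosome-associated p53 target, at 29.2, 30.4 and 30.5 CPM against 3.41, 3.52 and 4.57 CPM (7.83-fold, adjusted p = 7.29e-10). Ckap2 and Ddb2 rose by 1.54 and 1.16.

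Repair genes followed the replication genes. For homologous recombination and the Fanconi pathway, 23 of 31 rose and 3 fell (median 1.04). Bard1, the partner of Brca1, was at 27.1, 29.9 and 25.4 CPM in immortalized DKO and 4.56, 4.49 and 6.01 CPM in primary DKO (log2 difference 2.25, adjusted p = 6.05e-09). Brca1 was 3.01-fold and Fancb 5.73-fold higher, whereas Rad52, Rad51d and Fance fell by 0.77, 0.57 and 0.47. Fance no longer passed with library totals (-0.26). Of 50 other repair and damage signalling genes, 30 rose and 7 fell (median 0.58). Of 17 genes for shelterin and telomerase, 9 rose and 3 fell (median 0.50). Tert, the catalytic subunit of telomerase, was at 2.74, 1.52 and 1.32 CPM against 6.1, 5.28 and 6.01 CPM (log2 difference -1.28, adjusted p = 3.59e-05), while its RNA-binding cofactor Dkc1 rose by 1.00. Of 9 high mobility group genes, which encode architectural chromatin proteins, 7 rose, led by Hmgn5 (1.80) and Hmgb2 (1.77). Hmga1, of which 30.5% is shared sequence, had a DKO difference of 0.10 (adjusted p = 0.349), which became 0.32 and passed with library totals. Its interactions had opposite signs, -1.52 against MycKO (adjusted p = 1.32e-05) and 1.49 against WT (adjusted p = 0.0175, and 1.89, adjusted p = 1.05e-06, without immortalized WT library 4).

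**Figure D3:**
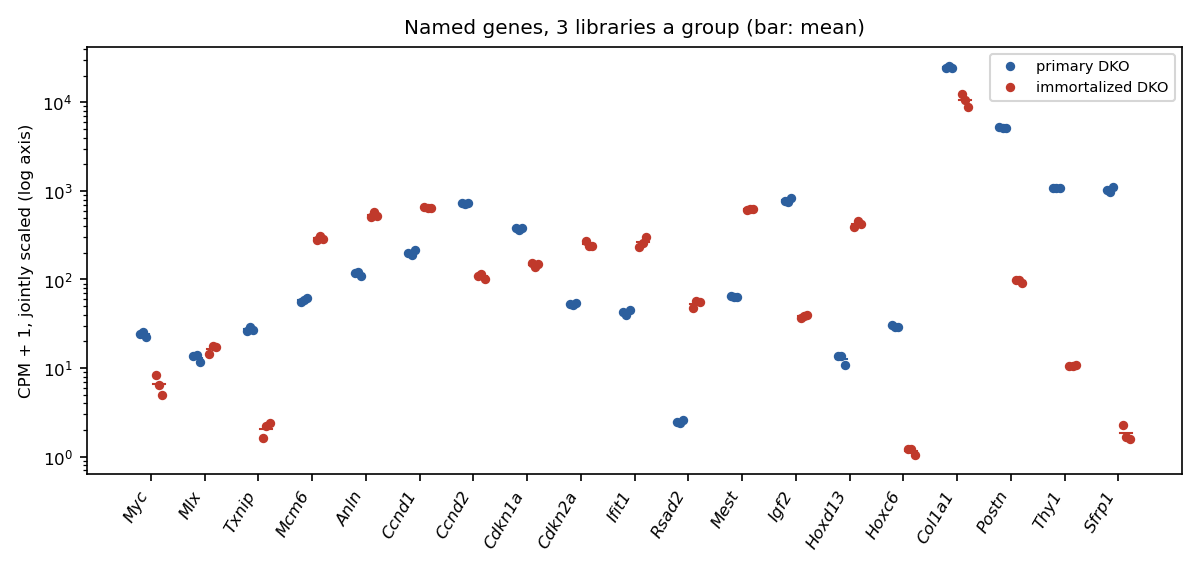
Jointly scaled CPM + 1 (log axis) of 19 genes in the 3 primary and the 3 immortalized DKO libraries. Points are libraries and bars group means. Apart from Mlx, the 2 groups are well separated for each gene shown, upward for Mcm6, Anln, Ccnd1, Cdkn2a, Ifit1, Rsad2, Mest and Hoxd13, and downward for Myc, Txnip, Ccnd2, Cdkn1a, Igf2, Hoxc6, Col1a1, Postn, Thy1 and Sfrp1.

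Cytosolic ribosomal protein genes were lower in immortalized DKO, although the cells had more replication and mitotic transcripts. Of 76 tested, 74 fell and none rose (median log2 difference -0.71; 65 fell with library totals). Summed over the list, immortalized DKO libraries held 15899 to 18930 CPM and primary DKO 26344 to 27176 CPM. The sums in the WT and MycKO lines were likewise lower after immortalization, except for 1 MycKO library at 34754 CPM. No ribosomal protein gene passed either interaction test with all libraries. Without library 4, 15 of 76 were higher and 1 lower against WT. Over all genes, calls against WT rose from 1224 higher and 1162 lower to 2530 and 2370. Rps6 was at 275, 329 and 381 CPM against 489, 495 and 516 CPM. About 23.4% of Rps6, and some of most ribosomal protein genes, is shared with other copies, which limits these counts. Nucleolar genes that assemble ribosomes did not move with them: of 40, 9 rose and 10 fell (median 0.02), or 21 and 1 with library totals. Ncl (nucleolin) had a log2 difference of 0.14 (adjusted p = 0.0781), which passed without immortalized library 13 (0.17), and Dkc1, which modifies ribosomal RNA, was the highest member (1.00). In the interaction with WT, 2 of 40 nucleolar genes were higher with all libraries and 32 without library 4, with none lower.

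Glycolysis was lower on balance. Of 21 genes, 16 fell and 1 rose (median -0.51). The lactate exporter Slc16a3 (MCT4) was at 19.4, 15 and 16.4 CPM in immortalized DKO and 127, 138 and 138 CPM in primary DKO (7.92-fold lower, adjusted p = 4.14e-11). Pfkfb3 and Pfkl, which set the pace of the phosphofructokinase step, fell by 2.07 and 1.69, and Hk2 by 0.84. Ldha was at 646, 617 and 658 CPM against 928, 899 and 907 CPM. Slc16a1 (MCT1), another lactate carrier, was the 1 member that rose (0.52). In the comparison with MycKO, 15 of these genes passed as lower in DKO and 2 as higher. With WT, the balance depended on immortalized WT library 4 and on the scaling. There, 3 of 22 were lower and 1 higher with all libraries, 5 lower and 9 higher without immortalized WT library 4, and 3 or 4 lower and 0 to 2 higher without any other library. With library totals, 2 were lower and 5 higher. Of 43 respiratory chain and ATP synthase genes, 7 rose and 15 fell (median -0.10), where 32.7% of all genes tested rose and 37.2% fell. With library totals 18 rose and 6 fell (median 0.12), where the median over all genes was 0.17.

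Sterol and fatty acid synthesis genes were higher more often than lower. Of 24 sterol genes, 14 rose and 4 fell (median 0.33), and of 13 fatty acid genes, 10 rose and 1 fell (median 0.35). Insig1, a sterol sensor that retains SREBP, was at 146, 156 and 154 CPM in immortalized DKO and 50.6, 53.4 and 45.7 CPM in primary DKO (3.04-fold). Idi1 (21.3% shared sequence), an enzyme of the isoprenoid steps, was 3.19-fold higher, and Fads2, a fatty acid desaturase, 2.65-fold. Fasn, which makes palmitate, had a difference of 0.19 (adjusted p = 0.189), which passed without immortalized library 15 (0.37). Lysosomal genes were split, 12 higher and 9 lower of 30 (median 0.05), against 32.7% higher and 37.2% lower over all genes tested. Gpnmb rose by 1.84 and the cathepsins Ctsk and Ctss fell by 3.58 and 2.74. Of 24 lysosomal genes with a promoter, 8 (33.3%) held the E-box. Of 18 NRF2 and glutathione genes, 10 rose and 5 fell (median 0.30), with Gclm, a subunit of the enzyme that starts glutathione synthesis, rising by 0.66.

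The matrix programme of fibroblasts was lower in immortalized DKO. Of 27 collagen genes, 22 fell and 4 rose (median -1.60). Col1a1, the main chain of type I collagen, was at 12538, 10585 and 8973 CPM in immortalized and at 24634, 25487 and 24773 CPM in primary DKO (2.33-fold lower, adjusted p = 7.2e-06). Col3a1 was at 1748, 1617 and 1457 CPM against 6889, 6420 and 7444 CPM, and Col14a1 at 0.204 to 0.422 CPM against 44.8 to 51.1 CPM. Col4a3 and Col4a4, basement membrane chains encoded by neighbouring genes, rose. Col4a3 was at 17.3, 14.9 and 12 CPM against 0.935, 1.02 and 0.877 CPM (15.6-fold higher), and Col4a4 had a log2 difference of 2.74. The summed collagen transcripts were 22587 to 30523 CPM in immortalized and 70055 to 71724 CPM in primary DKO. In bulk RNA, fewer cells of a type and less RNA per cell cannot be told apart.

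Among 36 matricellular and matrix glycoprotein genes, 31 fell and 5 rose (median -1.22). Postn (periostin, a matrix protein of activated fibroblasts) was at 97.6, 96.5 and 89.2 CPM in immortalized and 5262, 5112 and 5123 CPM in primary DKO (54.7-fold lower, adjusted p = 2.57e-14). Dcn (decorin), which coats collagen fibrils, was at 9.28, 13.4 and 16.1 CPM against 495, 469 and 512 CPM. Thbs1 and Fn1, among the most abundant transcripts of the primary cells, fell by 1.90 and 0.98. Ogn (osteoglycin), a relative of decorin, rose, at 561, 800 and 766 CPM against 135, 141 and 139 CPM (log2 difference 2.33). Of 23 matrix protease and inhibitor genes, 20 fell and none rose. Mmp13 was at 0.211, 0.421 and 0 CPM against 125, 121 and 133 CPM (log2 difference -6.73), Mmp3 was 118-fold lower, and the inhibitor Timp1 was 4.25-fold lower.

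The contractile genes that mark myofibroblasts were lower too, 18 of 20 with none higher (median -1.02). Acta2, the smooth muscle actin, was at 3497, 3541 and 3746 CPM in immortalized and 6821, 7119 and 6785 CPM in primary DKO (1.92-fold lower). Mylk, which phosphorylates myosin, was at 2.11, 1.79 and 1.88 CPM against 276, 286 and 274 CPM (log2 difference -6.58), and Myh11, the smooth muscle myosin heavy chain, was 21.8-fold lower. Des (desmin) was at 0.105 to 0.356 CPM against 82.6 to 89.5 CPM. Compared with MycKO, 14 contractile genes had a more negative difference in DKO and none a more positive one. Against WT, 2 were in each direction with all libraries, and 8 were higher and 2 lower without immortalized WT library 4. Leaving out any other library gave 0 or 2 higher and 2 or 3 lower. Collagens went the other way against MycKO, with 12 higher and 4 lower in DKO.

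Fibroblast identity itself was checked with 11 tested markers, of which 10 fell and 1 rose. Vim (vimentin) was the 1 that rose, at 4769, 5163 and 5158 CPM in immortalized and 2886, 3048 and 2783 CPM in primary DKO (1.73-fold). Pdgfra, a growth factor receptor of mesenchymal cells, was at 108, 119 and 103 CPM against 216, 203 and 228 CPM. Prrx1, a transcription factor of limb mesenchyme, was at 197, 261 and 238 CPM against 604, 588 and 592 CPM. These markers, like Col1a1, were well detected in both groups, whereas Dcn and Thy1 were low in immortalized DKO, and Tcf21, which stayed below the filter, had no read there. Thy1, a surface protein of fibroblasts, had the smallest spread of the strongly altered markers, at 9.55, 9.51 and 9.87 CPM against 1086, 1080 and 1082 CPM (112-fold lower, adjusted p = 3.14e-15).

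Interferon-stimulated genes were higher in immortalized DKO. Of 36 tested, 34 rose and 1 fell (median log2 difference 1.84). Rsad2 (viperin, an antiviral enzyme) was at 46.3, 55.8 and 55.1 CPM in immortalized and at 1.43, 1.36 and 1.57 CPM in primary DKO (36.0-fold, log2 difference 4.44, adjusted p = 5.93e-12). Ifit1, a sensor of foreign RNA caps, was at 230, 256 and 298 CPM against 41.6, 39.1 and 43.7 CPM, and Ifi44 was 8.27-fold higher. Among regulators, Irf7 was 3.30-fold higher (log2 difference 1.69), but did not pass in the fit of all 24 libraries (1.68). Ifi27 fell by 0.46, and Zbp1 had a difference of 0.26 that did not pass, except without primary library 15 (0.40). Across groups, the list summed to 4050 to 4357 CPM in immortalized DKO, 1256 to 1355 CPM in primary DKO, 3462 to 3910 CPM in immortalized MycKO and 721 to 790 CPM in primary MycKO. In the interaction with MycKO, 4 genes were higher and 23 lower in DKO. In that with WT, 2 were higher and none lower with library 4, and 19 higher and 1 lower without it. The interaction of Irf7 was 2.45 against WT (adjusted p = 0.283; 0.66 and past the threshold without library 4) and -2.54 against MycKO (adjusted p = 4.61e-07), which did not pass in the fit of all 24 libraries (-2.53).

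Genes for antigen presentation by MHC class I, many of which respond to interferon, were also higher, 14 of 18 with 2 lower (median 0.92). Nlrc5, the transactivator of these genes, was at 46.8, 35.3 and 34.9 CPM in immortalized and 6.71, 7.78 and 8.7 CPM in primary DKO (5.04-fold). B2m, the shared light chain, was at 1434, 1751 and 1858 CPM against 869, 908 and 892 CPM. The heavy chains H2-K1 and H2-D1 rose by 0.54 and 0.34, and no longer passed in the fit of all 24 libraries (0.53 and 0.33). Among the other heavy chains, H2-Q6, H2-Q7, H2-Q4 and H2-T22 rose by 3.15, 2.72, 1.92 and 0.47. H2-T23 and the chaperone Calr fell by 1.16 and 0.45.

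Complement and macrophage genes fell together, and C1qa, C1qb and C1qc were counted in both lists. Of 18 complement genes, 14 fell and 1 rose (median -2.82). C3, the central component, was at 1.27, 1.21 and 0.407 CPM in immortalized and 34.8, 36.1 and 37.7 CPM in primary DKO (log2 difference -4.28, adjusted p = 2.59e-10). Serping1, the C1 inhibitor, was 32.6-fold lower. Masp1, a lectin pathway protease, was the exception, at 387, 410 and 376 CPM against 112, 109 and 107 CPM (3.57-fold higher). Of 17 tested macrophage markers, 16 fell and none rose, and the 19 listed summed to 148 to 331 CPM in primary DKO and 9.99 to 10.9 CPM in immortalized DKO. The lysozyme gene Lyz2 was at 71.8, 61.4 and 154 CPM in primary DKO, and 1 of the 3 immortalized libraries held any read of it. Adgre1 (F4/80), Ptprc, Tyrobp, C1qa, C1qb and C1qc were at 0 in all 3 immortalized libraries, and Adgre1 had 6.16, 5.57 and 13.6 CPM in the primary ones. Primary WT summed to 411 to 805 CPM and primary MycKO to 70.4 to 106 CPM for the list. The part of such cells in the lower complement and chemokine levels of immortalized DKO was not tested.

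Chemokines and secreted cytokines were mostly lower, 21 of 26, with 5 higher (median -1.30). Cxcl14 was at 0.106, 0.105 and 0.102 CPM in immortalized and 160, 150 and 158 CPM in primary DKO (log2 difference -7.15, adjusted p = 4.33e-14). The inflammatory cytokine Il6 was at 0.528, 1.26 and 1.22 CPM against 10.5, 8.07 and 9.77 CPM, and Ccl2, which recruits monocytes, was 2.46-fold lower. Cxcl15, Ereg and Cxcl10 rose. Cxcl15 was at 20.1, 22.3 and 27.3 CPM against 0.88, 1.53 and 0.939 CPM (20.8-fold), the EGF receptor ligand Ereg was 8.59-fold higher, and the interferon-induced Cxcl10 was 11.1-fold higher.

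The IGF axis and imprinted growth genes, which are active in the embryo, were mostly lower, 24 of 28 with 3 higher (median -2.83). Igf2, the fetal growth factor, was at 35.6, 37.7 and 38.3 CPM in immortalized and 768, 753 and 832 CPM in primary DKO (21.1-fold lower, adjusted p = 1.21e-13), with 75.8% of its sequence shared. Its imprinted neighbour H19 was at 110, 101 and 96.9 CPM against 620, 590 and 725 CPM. Igfbp3, which binds IGFs outside cells, was 150-fold lower and Dlk1 97.2-fold lower. Mest, expressed from the paternal allele, stood against these. It was at 609, 616 and 628 CPM against 64, 61.6 and 63.2 CPM (9.82-fold higher, adjusted p = 5.48e-13). The interaction of Mest was 3.82 against MycKO (adjusted p = 1.18e-11). Against WT it was -0.83 (adjusted p = 0.627) with library 4 and -2.12 (adjusted p = 3.96e-08) without it.

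Ligands and inhibitors of the TGF-beta and BMP families moved both ways, 7 higher and 14 lower of 24 (median -0.89). The BMP antagonist Grem1 was at 19.3, 23.2 and 20.6 CPM in immortalized and 459, 445 and 443 CPM in primary DKO (21.3-fold lower). Nog (noggin), another antagonist, was at 16.7, 17 and 13.8 CPM against 1.98, 1.14 and 1.06 CPM (11.4-fold higher). Among ligands, Tgfb3, Inhba and Tgfb1 fell by 2.91, 2.25 and 1.31, and Bmp2, Gdf5 and Gdf6 rose by 1.28, 1.51 and 1.84.

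Hox genes specify position along the body and limb axes, with high paralog numbers lying at the 5′ ends of the 4 clusters and marking distal positions. Of 35 tested, 9 rose and 23 fell (median -1.57), and direction followed cluster and paralog. All 8 tested Hoxb genes (chromosome 11) fell, by 2.70 to 4.09, as did all 9 tested Hoxc genes (chromosome 15), by 0.85 to 4.67. In Hoxa (chromosome 6), paralogs 9 to 13 rose (4 of 4) and 4 of 6 tested lower paralogs fell. In Hoxd (chromosome 2), paralogs 9 to 13 rose (5 of 5) and 2 of 3 lower paralogs fell, namely Hoxd3 and Hoxd4, each with about 42% shared sequence. Hoxd13 was at 390, 455 and 427 CPM in immortalized and 12.8, 12.7 and 9.83 CPM in primary DKO (36.0-fold higher, adjusted p = 6.47e-13). Hoxa13 was at 40.4, 39.9 and 40.5 CPM against 3.63, 3.47 and 2.63 CPM. Hoxc6 was at 0.211, 0.21 and 0.0509 CPM against 29.3, 27.8 and 28.4 CPM, and Hoxb3 at 0.0526 to 0.369 CPM against 19 to 21.7 CPM. Hoxd13 was higher in immortalized than primary cells of the other genotypes as well, with 208 to 434 CPM against 47.3 to 49.4 CPM in WT and 120 to 150 CPM against 11.5 to 16.9 CPM in MycKO. The difference was larger in DKO than in WT (2.27, adjusted p = 0.000847, and 1.93, adjusted p = 1.06e-07, without immortalized WT library 4) and than in MycKO (1.88, adjusted p = 3.19e-06).

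**Figure D4:**
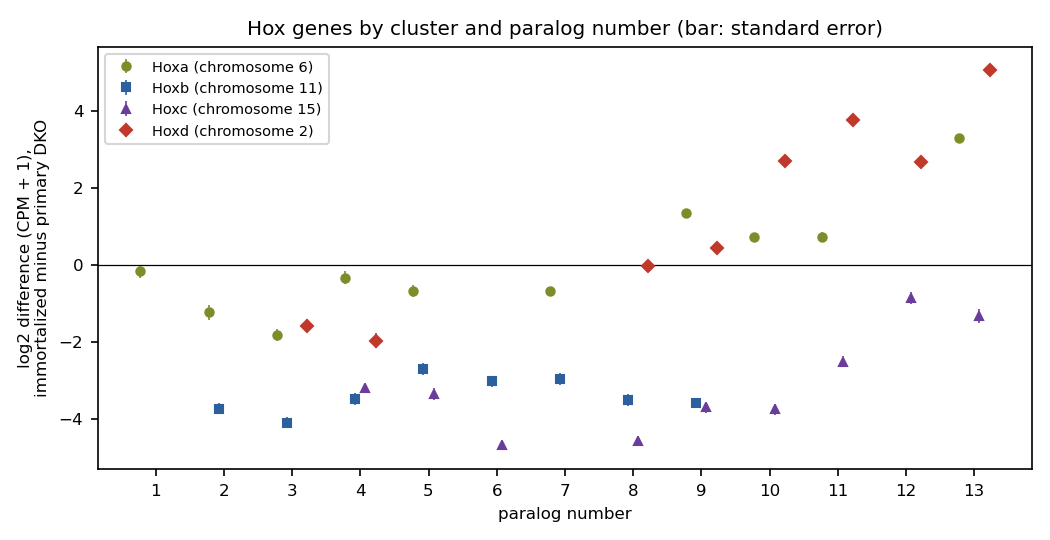
Log2 difference (CPM + 1, immortalized minus primary DKO) of the 35 tested Hox genes by paralog number, with standard errors as bars (often smaller than the symbols) and clusters by colour. Hoxb and Hoxc genes lie below 0 throughout (-0.85 to -4.67), whereas Hoxa and Hoxd genes from paralog 9 onward lie above 0, up to 5.06 for Hoxd13.

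Markers of further cell types were low or moved in both directions. Of 9 tested neural and glial markers, 7 fell, and the Schwann cell and neural crest genes Sox10 and Foxd3 were at 0 in all immortalized DKO libraries. Ngfr, a neurotrophin receptor, was at 21.3, 20.6 and 20.7 CPM in primary DKO and had a read in 1 immortalized library. Map2, a microtubule protein known from dendrites, rose, at 196, 208 and 193 CPM against 9.9, 8.52 and 10.5 CPM (20.6-fold). Of 9 tested cartilage and bone markers, 5 rose and 3 fell. Sox9, the master factor of cartilage, rose by 0.63, whereas Acan and Col2a1, which encode cartilage matrix, fell by 3.8 and 1.88. Of 5 tested adipocyte markers, 2 rose and 2 fell. Pparg, the adipocyte regulator, was at 22.2, 29.2 and 31.9 CPM against 3.19, 3.07 and 3.88 CPM (8.22-fold higher), whereas Lpl (lipoprotein lipase) was 86.7-fold lower, and the adipocyte products Lep, Retn, Cfd and Cidec had no reads in any of the 6 libraries. Of 4 tested endothelial markers, 1 rose (Tek, 0.72), of 2 epithelial markers Krt19 rose by 2.34 and Krt18 fell by 1.20, and the 1 tested skeletal muscle marker, Acta1, rose by 0.76.

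Sex-linked transcripts differed between the 2 DKO groups. The Y-linked Ddx3y was at 1.16, 1.63 and 1.88 CPM in immortalized and 11.3, 11.7 and 11 CPM in primary DKO, and all 4 Y-linked genes of the list fell. Of the 6 genes tested on chromosome Y, 66.7% were called lower and 33.3% higher. Xist, the RNA of the inactive X, was at 1051, 1074 and 728 CPM against 586, 569 and 592 CPM (log2 difference 0.68, which did not pass in the fit of all 24 libraries). The part of the sex of the pooled embryos in the results was not tested. Medians by chromosome ranged from -0.20 (chromosome 7) to 0.16 (X), apart from Y (-1.49, 6 genes).

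The 12 genes that rose most, by the rule in the methods, were led by Ptprq, a receptor phosphatase of the inner ear and kidney, at 120, 141 and 113 CPM in immortalized and 2.09, 2.22 and 1.38 CPM in primary DKO (log2 difference 5.45, SE 0.132, adjusted p = 3.11e-12). Rab3b, a small GTPase of secretory vesicles, was at 67.1 to 83.3 CPM against 0.814 to 1.98 CPM (5.08). The matrix link protein Hapln1 (4.73) and the transcription factors Tfap2b (4.65) and Lhx2 (4.23) followed Hoxd13, with Rsad2, Map2, the synaptic adhesion gene Lrrtm3 (4.35), the hyaluronan-binding Itih2 (4.23) and the natural killer receptor gene Klra4 (4.17). Fam177a2 (4.31) shares 98.8% of its sequence with another gene and was uneven, at 20.7, 52.5 and 5.8 CPM in immortalized DKO and 0 in all primary libraries. For these 12 genes the groups did not overlap, as the rule required.

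The 12 that fell most were led by Sfrp1, a secreted Wnt inhibitor, at 1.27, 0.683 and 0.56 CPM in immortalized and 1025, 965 and 1097 CPM in primary DKO (log2 difference -9.15, SE 0.124, adjusted p = 4.27e-14). Ptn (pleiotrophin), a heparin-binding growth factor, was at 2.22, 3.26 and 3.21 CPM against 618, 594 and 635 CPM (-7.32). Mfap4, a microfibril protein, was at 0.317, 0.368 and 0.305 CPM against 182, 179 and 198 CPM (-7.14). The glycosyltransferase gene Galnt17 (-6.49) and the secreted Egfl6 (-6.13) were the members outside the lists, along with Sfrp1 and Ptn. The others were Cxcl14, Mmp13, Thy1, Mylk, Igfbp3, Lyz2 and Mmp3.

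Finally, the genes whose immortalization difference in DKO departed most from that in WT and MycKO were examined. Against WT, Trim30a, an interferon-induced gene with 27.8% shared sequence, had the largest positive interaction (4.10, adjusted p = 0.00206, and 3.31, adjusted p = 6.93e-10, without library 4). It was higher after immortalization in DKO (193 to 237 CPM against 34.2 to 35.7 CPM, 24-library scale) and not in WT (3.09 to 21.4 CPM against 29.9 to 37 CPM). Serpinb9b, Sp100, Entpd1, Cobl and Rasgrp3 followed, with interactions of 4.03, 3.93, 3.83, 3.66 and 3.45. In each of them immortalized WT means lay below and immortalized DKO means above the primary ones. The largest negative interaction was that of the matricellular gene Thbs4 (-6.93, adjusted p = 1.64e-09, and -6.98 without library 4). Thbs4 was at 120 to 169 CPM in immortalized and 2.31 to 2.41 CPM in primary WT, and at 10.3 to 11.1 CPM and 29.9 to 37.5 CPM in DKO. Ptn (-5.43), Slc5a7 (-4.69), Postn (-4.65), Sfrp1 (-4.22) and Aoc3 (-4.15) came next. All 12 passed with and without library 4.

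Against MycKO, Tfap2b had the largest positive interaction (7.06, adjusted p = 1.64e-11). It was at 47.6 to 50.9 CPM in immortalized and 0.72 to 1.66 CPM in primary DKO, and had no read in immortalized MycKO, where the primary cells had 4.31 to 4.49 CPM. Ptprq (6.02), the adhesion gene Pcdh17 (5.26), Hapln1 (5.01), Eln (4.85) and Cxcl15 (4.48) followed. Eln (elastin) fell in DKO too (log2 difference -1.19) and passed because it fell further in MycKO, to 0.78 to 0.947 CPM from 110 to 135 CPM. Ptprz1 had the largest negative interaction (-6.38, adjusted p = 4.9e-11), at 0.255 to 0.839 CPM in immortalized and 90.4 to 98.9 CPM in primary DKO, against 82.5 to 113 CPM and 65.1 to 89.6 CPM in MycKO. Crabp1 (-6.10), which binds retinoic acid, Sfrp1 (-6.02), the muscle stress gene Ankrd1 (-5.73), Ptn (-5.67) and the tenascin gene Tnn (-5.53) came next.

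**Figure D5:**
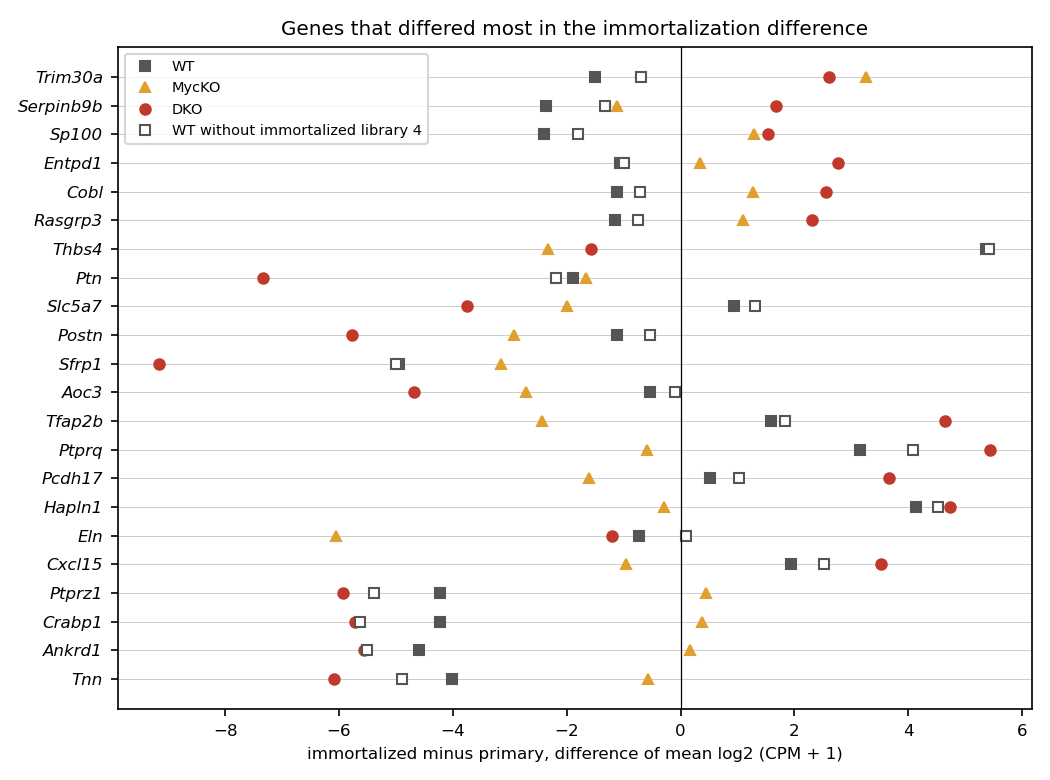
Immortalized minus primary difference of mean log2 (CPM + 1) in DKO (circles), WT (filled squares), MycKO (triangles) and WT without immortalized library 4 (open squares) for the 22 genes with the 6 largest interactions each way against WT or MycKO. Trim30a to Rasgrp3 lie above 0 in DKO and below 0 in WT, Thbs4 lies above 0 in WT alone, and Ptprz1, Crabp1 and Ankrd1 lie below 0 in DKO and WT and slightly above it in MycKO.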

How the data were processed

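Polyadenylated RNA of primary and SV40 T antigen-immortalized MEFs was sequenced by the authors from strand-specific libraries and mapped to GRCm39 with CLC Genomics Workbench. The deposited values were the authors' normalized CPM, a signal per gene and library whose columns had unequal sums. Every value above 0 was a whole multiple of 1 read (100% of values, tolerance 0.01), from which read counts were recovered. Columns of the authors' own comparisons were not used. The depth of each library therefore fixed its precision, and 3 reads corresponded to about 0.15 to 0.17 CPM in DKO.

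Libraries were scaled jointly by median ratios, over the 6 DKO libraries for the main comparison, 12 for each interaction and 24 where levels were compared across genotypes. Genes with 1 CPM or more in at least 3 libraries were kept. The log2(CPM + 1) values were tested with limma-trend (limma 3.58.1, R 4.3.3) and Benjamini-Hochberg adjustment, at adjusted p below 0.05. In a design of 3 against 3, an exact permutation test of a single gene could not go below p = 0.1. The limma, edgeR and DESeq2 fits of the DKO comparison and of the interaction with WT were tested on simulated data. Alternatives comprised edgeR 4.0.16 quasi-likelihood and DESeq2 1.42.0 on the recovered reads, TMM and library-total scaling, the deposited values as they stand, a pseudocount of 0.1, other filters (none, or a mean of at least 5 CPM), all 24 libraries in the fit, a log2 difference of at least 1, and leaving out each library.

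Groups followed the labels. No source links the library numbers in the column headers with replicate numbers given by the labels. Deviations from group means of same-numbered DKO libraries correlated at -0.079, 0.039 and -0.040, so libraries were not paired. Named genes were Myc and Mlx, members of lists described by role, the 12 genes with the largest rise and fall (no overlap, at least 5 CPM in the higher group, no predicted symbols) and the 6 largest each way in each interaction. Members and lists were chosen with earlier results of these data known. Positions of genes came from GENCODE (GRCm39), which matched 41181 of 41710 identifiers, and promoters from RefSeq (GRCm38.p6). The p53 half-site was not searched. Some genes are not reported here. The share of a gene's exonic sequence found elsewhere among transcripts was computed as a guide to ambiguous counts.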

Additional observations from a re-analysis of the deposited data

Results flagged for a closer look

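The following results were set apart because the difference between immortalized and primary cells itself differed between genotypes by the interaction test across all genes (limma-trend, adjusted p below 0.05). Between DKO and WT, 2386 genes passed. Trim30a (4.10), Serpinb9b (4.03), Sp100 (3.93), Entpd1 (3.83), Cobl (3.66), Rasgrp3 (3.45), the cyclin gene Ccnd1 (2.60), Hoxd13 (2.27) and the high mobility group gene Hmga1 (1.49) had a more positive log2 difference in DKO. Thbs4 (-6.93), Ptn (-5.43), Slc5a7 (-4.69), Postn (-4.65), Sfrp1 (-4.22) and Aoc3 (-4.15) had a more negative one.

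Between DKO and MycKO, 4024 genes passed. The more positive were Tfap2b (7.06), Ptprq (6.02), Pcdh17 (5.26), Hapln1 (5.01), Eln (4.85), Cxcl15 (4.48), the imprinted gene Mest (3.82) and Hoxd13 (1.88). The more negative were Ptprz1 (-6.38), Crabp1 (-6.10), Sfrp1 (-6.02), Ankrd1 (-5.73), Ptn (-5.67), Tnn (-5.53), the interferon regulator Irf7 (-2.54) and Hmga1 (-1.52), whose interaction with WT had the opposite sign.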

How the results depend on the processing

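The comparison of immortalized with primary DKO gave 8972 genes and stayed within 1.5 times of that with another pseudocount, filter, scaling, variance prior or tool, and with all 24 libraries in the fit (7484 to 9945; edgeR 8898, DESeq2 8620). Leaving out each library gave 8136 to 9446. Requiring a log2 difference of at least 1 left 2817. The share of called genes that were higher was 46.8% and rose to 63.0% with library totals or the deposited values. Against WT, 2386 genes passed, 921 with a log2 difference of at least 1, 1985 with edgeR and 2596 with DESeq2. Leaving out each library gave 1506 to 4900. The highest was without immortalized WT library 4, and the counts without primary DKO library 13, primary WT library 1 and primary WT library 2 were 1550, 1506 and 1561. The share that was higher was 51.3%, and 67.2% with library totals. Against MycKO, 4024 genes passed, 1565 with a log2 difference of at least 1, 3906 with edgeR, 4090 with DESeq2 and 3371 to 4475 when each library was left out. Trp53, at -0.02, became 0.20 with library totals and with the deposited values. In the fit of all 24 libraries, Irf7 (1.68), H2-K1 (0.53), H2-D1 (0.33) and Xist (0.68) no longer passed, nor did the interaction of Irf7 with MycKO (-2.53), Fance with library totals (-0.26) or Mlx without the filter on low values (0.34). The other values named kept their sign wherever they passed.

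No paired analysis was possible because the replicate numbers of the labels could not be tied to columns. A replicate block built from the library numbers of the headers, added after the data were seen, gave 8853 genes for DKO and 3841 for the interaction with MycKO. It could not be built for WT, whose primary and immortalized numbers differ.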
